A study of Mus musculus with 28 samples.

Results

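Collagen chains are described here across 5 mouse adipose data sets. They are 34 genes with a symbol of the form Col, a number, the letter a and a number, each with a value of at least 1 in 2 or more libraries of any set. Another 10 genes with such a symbol stayed below that value, so 34 of 44 collagen symbols were kept, out of 55891 identifiers in all. The members fall into 8 fibrillar chains, 8 chains of basement membrane collagens, 6 type VI chains and 12 others. Closest to the limit, judged by each gene's second-highest value in a set, were Col6a4 at 1.10, Col17a1 at 1.16 and Col22a1 at 1.22 on the inside and Col26a1 at 0.938 and Col24a1 at 0.758 on the outside.

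The libraries compare control mice, labelled WT, with mice labelled Fgf13 KO, which the series text calls Fgf13∆Adipo. Fgf13 belongs to the fibroblast growth factor family but acts inside the cell. An inducible knockout was sampled in epididymal white fat (ieWAT, 3 control and 3 knockout libraries) and subcutaneous white fat (isWAT, 3 and 2). A constitutive knockout was sampled in subcutaneous white fat (sWAT, 3 and 3) and brown fat (BAT, 3 and 2), and in all 4 of these sets both genotypes were obese after 20 weeks of high fat feeding. For a further epididymal set (eWAT, 3 and 3) the series text names neither the kind of knockout nor the diet. The sources used here do not give the driver of the deletion, the inducing agent, or the age and sex of the mice. The labels do not say whether the libraries of a group are different animals. A p therefore covers only the variation among these libraries, part of which may be technical.

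Collagens are secreted as trimers of chains wound into a triple helix, and a helix forms only where glycine recurs at a fixed spacing along each chain. Fibrillar collagens give tissue its tensile strength, type IV collagens build the sheet-like basement membrane around adipocytes and vessels, and type VI collagens form beaded filaments near the cell surface. In adipose tissue the collagen network surrounds each fat cell, and its accumulation in obesity is known as adipose fibrosis.

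The glycine repeat is what the members share beyond their names, and it is shown for 7 members on which the results turn, Col1a1, Col4a1 and Col6a1 as abundant chains of the fibrillar, basement membrane and type VI classes, and Col6a6, Col8a2, Col12a1 and Col27a1 as minor chains described below. Each window gives the first 90 bases of the longest run in the GENCODE M21 (GRCm38) transcript, 10 units of 9 bases, and the capitals mark the GG that opens each glycine codon.
Col1a1: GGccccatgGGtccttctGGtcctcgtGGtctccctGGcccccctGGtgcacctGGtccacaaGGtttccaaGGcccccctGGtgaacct
Col4a1: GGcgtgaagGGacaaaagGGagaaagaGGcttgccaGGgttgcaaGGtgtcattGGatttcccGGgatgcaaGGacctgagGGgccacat
Col6a1: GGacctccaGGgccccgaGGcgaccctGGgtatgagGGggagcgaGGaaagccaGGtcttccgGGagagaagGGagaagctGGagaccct
Col6a6: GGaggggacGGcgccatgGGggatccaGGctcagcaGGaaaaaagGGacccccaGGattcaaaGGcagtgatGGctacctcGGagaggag
Col8a2: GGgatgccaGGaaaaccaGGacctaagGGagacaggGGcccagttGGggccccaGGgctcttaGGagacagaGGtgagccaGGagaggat
Col12a1: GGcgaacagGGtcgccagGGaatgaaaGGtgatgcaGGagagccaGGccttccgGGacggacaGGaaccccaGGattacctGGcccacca
Col27a1: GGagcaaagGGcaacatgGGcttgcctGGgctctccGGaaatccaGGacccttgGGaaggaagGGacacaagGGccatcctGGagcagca

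A run of at least 20 such units, GG every 9 bases, was found in the transcripts of 34 of the 34 members and in 22 of 21833 protein-coding genes without a collagen symbol (0.101%). The longest run set the fibrillar chains apart, while the other classes overlapped. In the fibrillar chains it spanned 217 to 344 units with a median of 338, and Col27a1, a minor fibrillar collagen of cartilage and other tissues, had the shortest at 217. Basement membrane chains had runs of 30 to 66 units (median 41), type VI chains 37 to 87 (median 45) and the other chains 28 to 113 (median 48). Col4a1, whose helix is interrupted, held 414 units in 18 runs of at least 10 units, against 355 units in 2 runs for Col1a1.

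An ieWAT library held 29857189 to 43624353 reads, an isWAT library 37700750 to 48812592, an sWAT library 13490948 to 21241811 and a BAT library 14951333 to 21246286, and the depth of the eWAT libraries is unknown. Values are CPM (reads scaled to a total of 1000000 per library) in the first 4 sets and FPKM (also divided by transcript length) in eWAT, and ± gives the SD over libraries. Each change is the knockout mean less the control mean of log2(value + 1), with its standard error (SE) from limma, and a gene is called at a Benjamini-Hochberg adjusted p under 0.05 over all genes tested. As a check of the labels, Fgf13 was lower in every knockout library than in every control library of ieWAT (44.3 ± 6.26 against 27.1 ± 5.61 CPM), isWAT (60.4 ± 8.19 against 33.3 ± 2.83), sWAT (109.5 ± 3.63 against 63.2 ± 20.5) and BAT (9.07 ± 7.62 against 1.06 ± 1.15). In eWAT it was 20.3 ± 7.39 FPKM in control and 22.6 ± 4.76 in the libraries labelled knockout, which goes against the label, so directions in eWAT are between labelled libraries only. Adipoq, made by adipocytes, averaged 570.1 to 2931 in the 10 groups (CPM or FPKM), and Ucp1, which defines brown adipocytes, averaged 5992 CPM in BAT control libraries and at most 4.16 in the control libraries of the white depots.

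Collagen transcripts made up 1.68% of all reads in ieWAT control libraries, 1.86% in isWAT, 1.49% in sWAT and 0.349% in BAT. Levels are set side by side across depots only as a description, because each depot table was normalised separately. Per kilobase of exon, Col4a1, a chain of the main type IV collagen, had the highest control mean of all members in ieWAT (384 CPM per kb), isWAT (556), sWAT (383) and BAT (105). Its partner Col4a2 and the fibrillar chain Col3a1 took the next 2 places in each of those depots. Col3a1 reached 63.9 CPM per kb in BAT, 320.2 in sWAT, 279.9 in isWAT and 310.4 in ieWAT, and Col4a2 83.8, 303, 462 and 301. In the sWAT knockout libraries Col3a1 (387) stood ahead of Col4a1 (352). In eWAT, where FPKM is already per length, Col3a1 led with 1060 ± 338 FPKM, ahead of Col4a1 with 374 ± 65.9. The Col3a1 and Col4a2 means of ieWAT differed by less than the spread between control libraries of either gene.

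Of the collagen reads in control libraries, fibrillar chains held 39.0 ± 6.45% in BAT, 43.9 ± 2.17% in sWAT, 36.7 ± 1.53% in isWAT and 42.0 ± 2.95% in ieWAT. Basement membrane chains held 46.7 ± 7.38%, 41.4 ± 1.85%, 49.0 ± 1.72% and 37.4 ± 3.42% in the same order. Type VI chains held 12.1 to 18.8%, and the 12 other chains together held 1.15 to 2.35%. In BAT the basement membrane share was 40.4 to 54.8% in control libraries and 53.1 to 60.7% in knockout libraries, so the groups overlapped. In sWAT it was 39.3 to 42.5% in control and 35.0 to 38.9% in knockout, without overlap.

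The summed level of all 34 members separated the groups in 2 of the 5 depots. In ieWAT the share of reads was 1.60, 1.75 and 1.68% in the control libraries and 1.30, 1.37 and 1.47% in the knockout libraries, a ratio of the means of 0.824. In BAT the control libraries had 0.326, 0.200 and 0.520% and the knockout libraries 0.142 and 0.158%, a ratio of 0.430. Every knockout library lay below every control library in both depots, but the BAT control libraries themselves differed by more than the gap to the knockout libraries. The groups overlapped in isWAT (1.73 to 1.99% against 1.43 and 1.76%), in sWAT (1.41 to 1.58% against 1.47 to 1.69%) and in eWAT (2645 to 4147 against 3100 to 4423 summed FPKM).

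**Figure D1:**
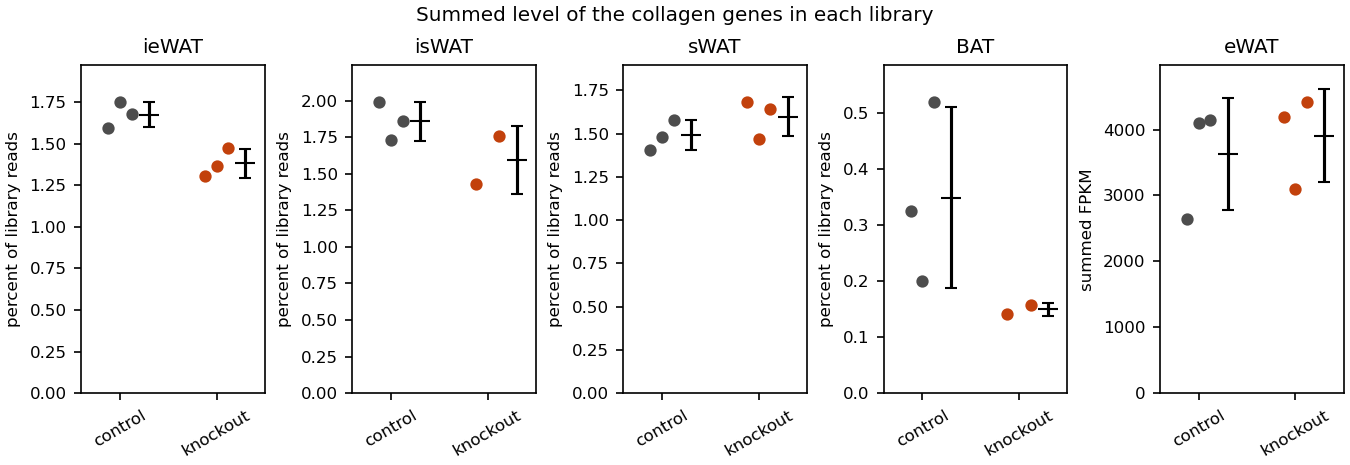
Summed level of the 34 collagen genes in each library by depot, as percent of library reads (ieWAT, isWAT, sWAT, BAT) or summed FPKM (eWAT). Points are libraries and black bars the mean with its SD; the knockout libraries lie below the control libraries in ieWAT (1.30 to 1.47% against 1.60 to 1.75%) and BAT, and overlap with them in the other depots.

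In ieWAT, Col6a1, Col6a2, Col5a1 and Col5a2 had lower values in every knockout library than in any control library after inducible knockout, but no collagen passed the test. Col6a2, a chain of the type VI filament, was 1049, 1302 and 1159 CPM in control libraries and 765, 818 and 915 CPM in knockout libraries, with every knockout value below every control value. Its log2 change was -0.49 (SE 0.14, limma adjusted p = 1.00). Its partner chain Col6a1 was 922, 1078 and 894 CPM against 657, 697 and 799 CPM (-0.43, SE 0.14), also without overlap. Col5a1 and Col5a2, the chains of the collagen that limits the width of collagen I fibrils, followed the same pattern. Col5a1 was 461, 522 and 516 CPM against 366, 374 and 417 (-0.37, SE 0.12), and Col5a2 was 383, 439 and 404 CPM against 285, 295 and 376 (-0.37, SE 0.14). The only member with the opposite order was Col4a6, a minor type IV chain, with 8.16, 5.80 and 8.27 CPM in control and 9.85, 9.85 and 10.4 CPM in knockout (0.40, SE 0.17).

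By limma, 0 of the 29 collagens tested in ieWAT were called, as were 0% of all 14749 genes, and edgeR (0% of all genes) and DESeq2 (0.217%) on the recovered reads also called 0 collagens. At an unadjusted p under 0.05, 4 collagens were lower (13.8%) and 1 higher (3.45%), against 0.617% and 2.00% of all genes. Groups did not overlap for the same numbers of collagens, 4 lower and 1 higher, against 1.68% and 3.43% of all genes. The median log2 change was -0.22 over the collagens, 20 of 29 of them below 0, and 0.02 over all genes. It was -0.43 over the 5 type VI chains tested, -0.25 over the 8 fibrillar, -0.17 over the 7 basement membrane and 0.05 over the 9 other chains. The collagen median stood at -0.10 without control replicate 3, and 5 members were too low to be tested.

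The main chains outside that group had overlapping libraries in ieWAT. Col1a1 and Col1a2, which form the tensile collagen I fibril, averaged 1073 ± 153 and 1424 ± 184 CPM in control and 917 ± 50.0 and 1211 ± 166 CPM in knockout. Col3a1, the fibrillar chain of pliable tissue, averaged 3047 ± 386 against 2329 ± 603 CPM (-0.41, SE 0.21), and knockout replicate 3 at 3015 CPM lay inside the control range. Col4a1 averaged 2867 ± 253 against 2428 ± 232 CPM and Col4a2 1994 ± 182 against 1780 ± 229 CPM. Col15a1 and Col18a1, basement membrane collagens of muscle and vessels, averaged 895 ± 150 and 455 ± 60.4 CPM against 783 ± 73.7 and 385 ± 24.8 CPM. Col6a3, whose cleaved end is the adipokine endotrophin, was 638, 603 and 669.8 CPM against 356, 417 and 640.3 CPM (-0.48, SE 0.21), again with knockout replicate 3 inside the control range.

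That library also had the highest fibroblast and macrophage marker sums of the knockout libraries. The 10 fibroblast and progenitor markers summed to 1090, 1150 and 925 CPM in ieWAT control libraries and to 679, 682 and 1160 CPM in knockout libraries. The 9 macrophage markers summed to 6820 to 9390 CPM in control and to 7400, 4870 and 11100 CPM in knockout, and the 6 B cell and lymph node markers to 1170 to 2160 against 3170 to 5270 CPM. The 7 T and NK cell markers summed to 18.3 to 32.9 against 40.5 to 57.6 CPM, 7 of 7 with a change above 0 and 5 higher without overlap (3.43% of all genes). For the B cell and the T and NK cell sums, knockout replicate 3 lay between the other knockout libraries. None of the genes in these lists was called, and their part in the collagen values was not tested. In these bulk libraries, fewer cells of a type and less RNA per cell cannot be told apart.

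Among the genes that make, assemble, cut and bind collagen, none of the members tested was called in ieWAT. Of 18 folding and secretion genes 16 had a change below 0, led by the prolyl hydroxylase P4ha2 (26.8 ± 0.778 against 21.6 ± 1.78 CPM, -0.30, SE 0.12) and the collagen chaperone Serpinh1 (760.2 ± 51.3 against 618 ± 42.7 CPM, -0.30, SE 0.13). Of 12 propeptide and cross-linking genes 11 were below 0, led by the lysyl oxidases Loxl2 (-0.45, SE 0.17) and Loxl4 (-0.37, SE 0.14). Mmp14, a membrane collagenase, was 235, 253 and 227 CPM in control and 193, 159 and 189 CPM in knockout (-0.40, SE 0.12), and the gelatinase Mmp2 had a change of -0.31 (SE 0.14). Fibril partners went both ways: fibrillin Fbn1, which is also among the fibroblast markers, averaged 295 ± 53.0 against 163 ± 76.0 CPM (-0.93, SE 0.31), and fibromodulin Fmod 31.6 ± 14.0 against 85.4 ± 35.0 CPM (1.39, SE 0.43). The receptor genes Itga11 (-0.61, SE 0.27) and Ddr2 (-0.37, SE 0.22), the laminin chain Lamb1 (-0.26, SE 0.15) and nidogen Nid2 (-0.21, SE 0.14) had the smallest p of their lists, as did Ltbp1 (-0.57, SE 0.21) and Tgfb2 (0.45, SE 0.22) among the TGF-beta genes.

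**Figure D2:**
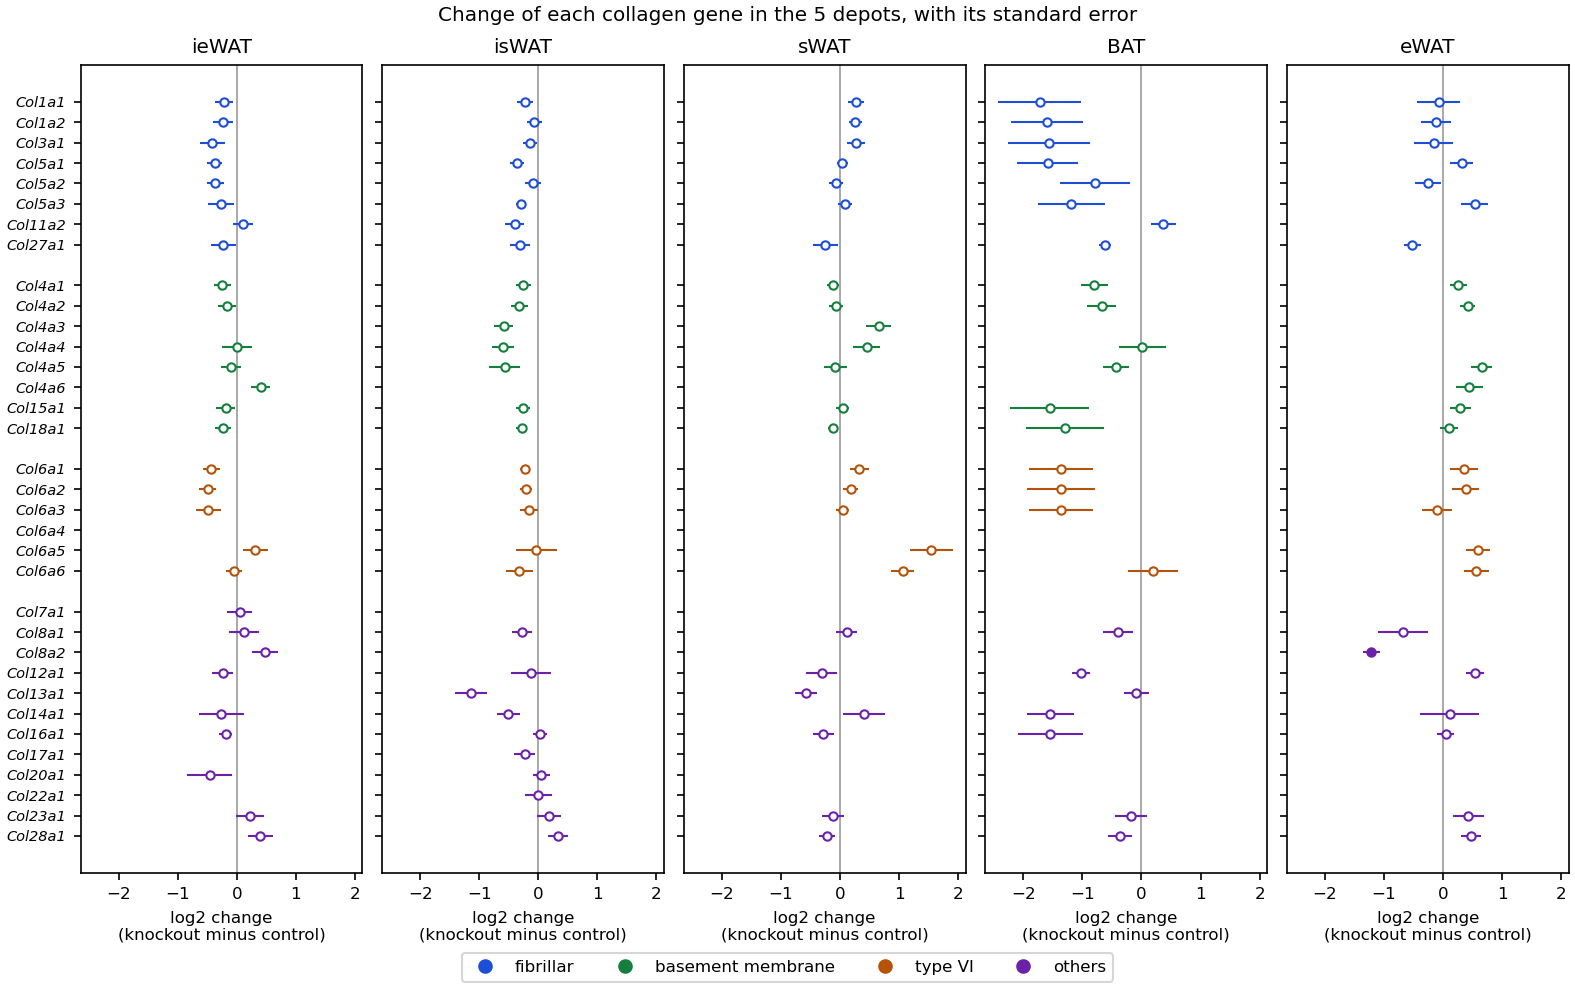
Log2 change (knockout minus control) of each collagen tested in each depot, grouped by class, with horizontal bars for the standard error. A filled point marks an adjusted p under 0.05, reached only by Col8a2 in eWAT; most points lie left of 0 in ieWAT (20 of 29), isWAT (25 of 30) and BAT (22 of 25). The isWAT count includes 4 members that met the filter on low values only through the control libraries, which bears on their direction.

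In isWAT, minor chains had the largest differences after inducible knockout, and again no collagen passed the test. Col13a1 and Col4a3, like Col11a2 and Col17a1, met the filter on low values only through the control libraries. Col13a1, a collagen that spans the cell membrane, was 5.42, 2.55 and 3.46 CPM in control and 1.54 and 0.769 CPM in knockout, and both knockout values lay below the control range (-1.14, SE 0.28, limma adjusted p = 0.274). Col4a3 and Col4a4, which pair in the basement membrane of kidney and lung, were low as well. Col4a3 was 2.44, 2.19 and 1.97 CPM against 0.928 and 1.35 CPM (-0.59, SE 0.16), and Col4a4 was 6.92, 6.59 and 5.20 CPM against 3.08 and 4.54 CPM (-0.60, SE 0.18). Of the abundant chains, Col5a3, a type V chain, was 1020, 936 and 1049 CPM against 828 and 806 CPM (-0.29, SE 0.09). Col5a1 was 607, 531 and 564 CPM against 390.5 and 499.8 CPM (-0.36, SE 0.12). Neither pair of groups overlapped.

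Of the 30 collagens tested in isWAT, 0 were called by limma, edgeR or DESeq2. Of all genes limma called 0.00701% (1 gene), edgeR the same share and DESeq2 1.91%. At an unadjusted p under 0.05, 9 collagens were lower (30%) and 0 higher, against 9.13% and 3.98% of all genes. The groups did not overlap for 10 collagens, each lower in knockout (33.3%), where 19.4% of all genes were lower and 12.2% higher without overlap. Without the 4 members that met the filter only through the control libraries, 6 of 26 were lower at that p and 7 did not overlap. The median log2 change was -0.24 with 25 of 30 below 0, against -0.03 over all genes. Each of the 8 fibrillar, 7 basement membrane and 5 type VI chains tested had a change below 0. Of the 10 other chains tested, 5 were below 0. The median and these counts include the 4 members that met the filter only through the control libraries, each with a change below 0. They were the fibrillar Col11a2, the basement membrane chain Col4a3, and Col13a1 and Col17a1 of the other chains. The filter bears on their direction. Leaving out control replicate 2 moved the count over all genes to 12, with 0 collagens among them.

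For the main chains of isWAT, the 2 knockout libraries stood apart from each other. Col4a1 was 4571, 3688 and 4199 CPM in control against 3124 and 3869 CPM (-0.25, SE 0.13), and Col4a2 3395, 2730 and 3051 CPM against 2134 and 2778 CPM (-0.32, SE 0.14), so knockout replicate 2 lay within the control range of both. Col1a1 averaged 1026 ± 118 against 877 ± 142 CPM, Col1a2 967 ± 33.7 against 931 ± 180 CPM and Col3a1 2747 ± 73.1 against 2506 ± 428 CPM. Without knockout replicate 1, the changes of Col1a2 (0.13) and Col3a1 (0.03) were above 0. Col5a2 averaged 483 ± 20.8 against 459 ± 98.5 CPM and Col6a3 768 ± 89.96 against 695 ± 155 CPM, and both also turned above 0 (0.13 and 0.07) without that library. Col15a1 averaged 1288 ± 148 against 1070 ± 92.3 CPM, with overlap. Col6a1 (698, 701 and 667 against 589 and 589 CPM), Col6a2 (1029, 941 and 964 against 783 and 924 CPM) and Col18a1 (667, 580 and 598 against 476 and 536 CPM) did not overlap.

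No cell marker was called in isWAT. The 8 endothelial markers summed to 2380 to 2690 CPM in control and 2180 and 2210 CPM in knockout, and all 8 had a change below 0. The 10 fibroblast and progenitor markers summed to 609 to 681 against 514 and 649 CPM. The macrophage markers summed to 1170 to 1530 against 1500 and 1670 CPM, so the sums of both lists overlapped. Their part in the collagen values was not tested.

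No gene of the collagen pathway lists was called in isWAT. All 9 basement membrane partners were below 0, led by the laminin chains Lama5 (151 ± 24.9 against 103 ± 1.97 CPM, -0.53, SE 0.13) and Lama2 (84.0 ± 11.1 against 63.2 ± 3.84 CPM, -0.40, SE 0.12). Of 11 cross-linking and propeptide genes 8 were below 0, led by Loxl2 (87.1, 84.2 and 84.3 against 63.2 and 68.6 CPM, -0.37, SE 0.08) and Loxl1 (-0.45, SE 0.14). Fbn1 was 167, 115 and 128 against 75.0 and 77.4 CPM (-0.82, SE 0.15), and fibronectin Fn1 had a change of -0.57 (SE 0.17). Ltbp4, which stores latent TGF-beta, averaged 471 ± 57.7 against 367 ± 4.87 CPM (-0.35, SE 0.11). The 2 lowest p values of the remaining lists belonged to P4ha2 (-0.35, SE 0.10) and P3h3 (-0.17, SE 0.08) for folding, Mmp14 (-0.23, SE 0.08) and Ctsk (0.27, SE 0.13) for breakdown, and Antxr1 (-0.28, SE 0.11) and Lair1 (0.37, SE 0.17) for receptors.

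In sWAT, after constitutive knockout, no collagen passed the limma test, and the smallest unadjusted p belonged to Col6a6, with higher values. Col6a6, a long type VI chain that can take the place of the Col6a3 product, was 4.71, 4.00 and 6.43 CPM in control and 13.7, 11.5 and 9.43 CPM in knockout, every knockout value above every control value. Its log2 change was 1.06 (SE 0.19, limma adjusted p = 0.387). DESeq2 on the recovered reads called it (log2 change 1.24, SE 0.25, adjusted p = 0.000603), and over its 15 alternatives the adjusted p ran from 0.000603 to 0.747 with 1 past the threshold. Its relative Col6a5 was 1.41, 0.445 and 0.0612 CPM in control and 2.60, 5.79 and 2.77 CPM in knockout (1.55, SE 0.36, adjusted p = 0.447), and it entered the test through its knockout libraries. Col4a3 was also higher, with 1.27, 1.93 and 1.47 against 4.27, 2.51 and 2.45 CPM (0.65, SE 0.21). Col13a1 was lower, with 2.02, 1.33 and 1.71 CPM in control and 1.03, 0.628 and 0.754 CPM in knockout (-0.58, SE 0.18). In sWAT, and likewise in isWAT, it met the filter on low values only through the control libraries, which favours a lower knockout value. Of the fibrillar chains, Col1a2 was 866, 949 and 1053 CPM against 1237, 1135 and 1063 CPM (0.26, SE 0.11), without overlap.

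Of the 26 collagens tested in sWAT, 0 were called by limma and by edgeR and 1 by DESeq2. Of all genes limma called 0.0217% (3 genes), edgeR 0.00724% and DESeq2 0.376%. Unadjusted p was under 0.05 for 4 higher (15.4%) and 1 lower (3.85%), against 1.93% and 7.72% of all genes, and the groups of the same numbers of collagens did not overlap, against 3.80% higher and 12.3% lower. The median log2 change was 0.05 over the collagens, 11 of 26 below 0, and -0.05 over all genes. It was -0.01 without control replicate 1, on the other side of 0. Of the 26, Col6a5 met the filter on low values only through the knockout libraries and Col13a1 only through the control libraries, which bears on the direction of both. Among the 24 others, 3 were higher and 0 lower at an unadjusted p under 0.05, and the same numbers did not overlap. Without knockout replicate 1 the count over all genes was 120 and without knockout replicate 2 it was 78, with 0 collagens called in each.

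The other main chains overlapped between the groups of sWAT. Col1a1 was 754, 891 and 923 CPM in control and 1168, 868 and 1096 CPM in knockout (0.28, SE 0.14), and Col3a1 2934, 2876 and 3619 CPM against 4413, 3561 and 3420 CPM (0.27, SE 0.14), with knockout replicate 1 the highest for both. Col4a1 averaged 2856 ± 137 against 2630 ± 171 CPM and Col4a2 2005 ± 38.8 against 1924 ± 226 CPM. Col5a1 averaged 422 ± 25.6 against 435 ± 42.2 CPM and Col5a2 452 ± 44.5 against 434 ± 61.2 CPM. Type VI had 586 ± 46.1 against 749 ± 159 CPM for Col6a1, 805 ± 25.4 against 923 ± 156 CPM for Col6a2 and 609 ± 61.0 against 629.9 ± 58.7 CPM for Col6a3. Col15a1 (902 ± 58.9 against 937 ± 113 CPM) and Col18a1 (388 ± 24.3 against 359 ± 23.9 CPM) lay close together. Signs turned without single libraries for Col5a1 (-0.01 without control replicate 1), Col6a3 (-0.03 without the same library), Col15a1 (-0.03 without knockout replicate 3), Col5a2 (0.02 without the latter) and Col4a2 (0.02 without knockout replicate 2).

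Skeletal muscle markers separated the sWAT knockout libraries from one another. The 6 markers summed to 14.4 to 27.1 CPM in control and to 19.0, 1800 and 2230 CPM in knockout replicates 1, 2 and 3. Col6a6 was 13.7, 11.5 and 9.43 CPM in the same order. The endothelial markers summed to 1600 to 1610 CPM in control and 1180 to 1480 CPM in knockout, all 8 with a change below 0, and the macrophage markers to 2020 to 2650 against 1070 to 2370 CPM. The part of these cell types in the collagen values was not tested.

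Pathway genes of sWAT held no call. The largest change of the folding list was Plod2, the lysyl hydroxylase of collagen ends, at 18.4, 20.8 and 20.1 CPM in control and 7.47, 11.6 and 9.56 CPM in knockout (-1.0, SE 0.15, limma adjusted p = 0.233), followed in p by Plod3 (-0.33, SE 0.11). Pcolce2, an enhancer of propeptide removal, averaged 121 ± 18.3 against 180 ± 22.3 CPM (0.57, SE 0.14), and the cross-linking enzyme Lox 358 ± 22.1 against 272 ± 60.2 CPM (-0.41, SE 0.15). Thrombospondin Thbs1 (-0.64, SE 0.14) and tenascin Tnc (-0.52, SE 0.15) led the fibril partners, and Tgfb1 (62.2 ± 5.05 against 48.5 ± 1.97 CPM, -0.35, SE 0.08) the TGF-beta genes. The endocytic collagen receptor Mrc2 (-0.40, SE 0.17), the inhibitor Timp3 (-0.14, SE 0.09), the receptors Lair1 (-0.87, SE 0.25) and Cspg4 (-0.43, SE 0.21) and the basement membrane genes Lama5 (-0.24, SE 0.08) and Nid2 (0.34, SE 0.17) had the smallest p of their lists.

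**Figure D3:**
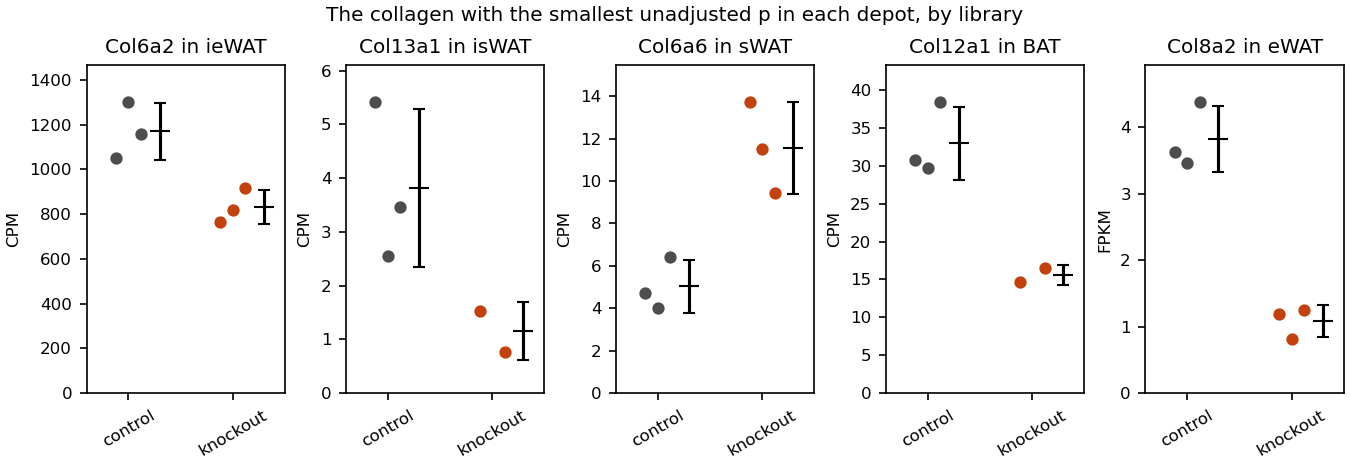
Level in each library of the collagen with the smallest unadjusted p in each depot, in CPM or, for eWAT, FPKM, with the mean and its SD as black bars. In all 5 panels the groups do not overlap, with Col6a6 higher in sWAT knockout (9.43 to 13.7 against 4.00 to 6.43 CPM) and the other 4 lower. The genes were picked by p from these same values, so the lack of overlap is not separate support. Col13a1 in isWAT and Col8a2 in eWAT met the filter on low values only through control libraries. Of all genes, 3.80% were higher without overlap in sWAT, and 1.68% in ieWAT, 19.4% in isWAT, 38.1% in BAT and 19.6% in eWAT were lower.

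In BAT, collagens of every class were lower in both constitutive knockout libraries, with none called by limma. Col12a1, which decorates fibril surfaces, was 30.7, 29.7 and 38.4 CPM in control and 14.7 and 16.5 CPM in knockout (-1.02, SE 0.15, limma adjusted p = 0.237). Col27a1 was 64.0, 68.2 and 64.7 CPM against 43.8 and 41.1 CPM (-0.62, SE 0.10). Both had control libraries close together and far from the knockout values. Col14a1, another fibril-associated collagen, was 15.0, 7.78 and 19.2 CPM against 3.02 and 4.88 CPM (-1.54, SE 0.39). Col4a1 was 731, 592 and 1027 CPM against 454 and 424 CPM (-0.80, SE 0.23), and Col5a1 74.7, 40.3 and 123 CPM against 19.7 and 27.4 CPM (-1.59, SE 0.51). For these 3 genes control replicate 3 was the highest and control replicate 2 the lowest control library.

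The same order of the control libraries ran through the main chains of BAT. Col1a1 was 216, 80.0 and 346 CPM in control and 45.8 and 64.7 CPM in knockout (-1.72, SE 0.70), Col1a2 223, 100 and 363 CPM against 55.2 and 78.3 CPM (-1.60, SE 0.61), and Col3a1 545, 254 and 1082 CPM against 145 and 219.8 CPM (-1.57, SE 0.70). Type VI chains were Col6a1 with 143, 78.2 and 254 CPM against 48.7 and 61.1 CPM (-1.36, SE 0.54), Col6a2 with 154, 77.6 and 272 CPM against 51.4 and 62.9 CPM and Col6a3 with 98.4, 52.6 and 172 CPM against 31.7 and 42.9 CPM. Col4a2 was 515, 412 and 737 CPM against 350.4 and 327 CPM (-0.67, SE 0.25), and Col15a1 109.6, 52.4 and 200.1 CPM against 25.7 and 47.7 CPM (-1.56, SE 0.67). No knockout value of these genes reached the control range. Col5a2 (75.3, 32.8 and 119 against 35.6 and 41.5 CPM) and Col18a1 (97.7, 33.8 and 128 against 25.7 and 35.1 CPM) overlapped through control replicate 2.

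By limma, 0 of the 25 collagens tested in BAT were called, against 0.00755% of all genes (1 gene), and edgeR called 0, as it did of all genes. DESeq2 called 5.97% of all genes. At an unadjusted p under 0.05, 7 were lower (28.0%) and 0 higher, against 16.8% and 2.32% of all genes. The groups did not overlap for 17 lower collagens (68.0%) and 1 higher, where 38.1% of all genes were lower and 6.37% higher without overlap. The higher one was Col11a2, which entered the test through its knockout libraries (0.565, 0.815 and 0.682 against 1.29 and 1.07 CPM). DESeq2 called 7 collagens, each lower (Col12a1, Col14a1, Col16a1, Col4a1, Col5a1, Col6a1 and Col6a3), against 4.00% of all genes lower. The median log2 change was -1.02 with 22 of 25 below 0, against -0.18 over all genes. With TMM scaling, which moved the median of all genes to 0.0041, the collagen median was -0.82 with 21 of 25 below 0. With all 34 members tested, the low ones included, it was -0.53.

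These counts turned on control replicate 2. Without it, limma called 12 collagens in BAT, each lower (Col12a1, Col14a1, Col16a1, Col18a1, Col1a1, Col1a2, Col27a1, Col4a1, Col4a2, Col5a1, Col5a2 and Col5a3), and 2201 of all genes. Leaving out any other library gave 0 collagens. The class medians were -1.38 over 8 fibrillar, -0.73 over 6 basement membrane, -1.36 over 4 type VI and -0.40 over 7 other chains.

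Macrophage and fibroblast markers of BAT had the control order seen in the collagens. The sums of the adipocyte, endothelial, T and NK cell and B cell markers had it too. Those of the mural and smooth muscle, brown adipocyte, skeletal muscle and Schwann cell markers did not. The 9 macrophage markers summed to 979, 331 and 1480 CPM in control and to 139 and 138 CPM in knockout, with 9 of 9 lower without overlap (38.1% of all genes). The 10 fibroblast and progenitor markers summed to 312, 234 and 379 CPM against 161 and 200 CPM, and Pdgfra, which defines progenitors, averaged 18.7 ± 5.94 against 9.27 ± 1.45 CPM. The endothelial markers summed to 972 to 1160 against 838 and 860 CPM, while the 6 brown adipocyte markers, in the reverse order, summed to 7540, 9370 and 6710 against 6910 and 8880 CPM. Skeletal muscle markers summed to 331, 973 and 5.93 CPM in control and 0.800 and 4780 CPM in knockout. The part of any of these cell types in the collagen values was not tested.

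**Figure D4:**
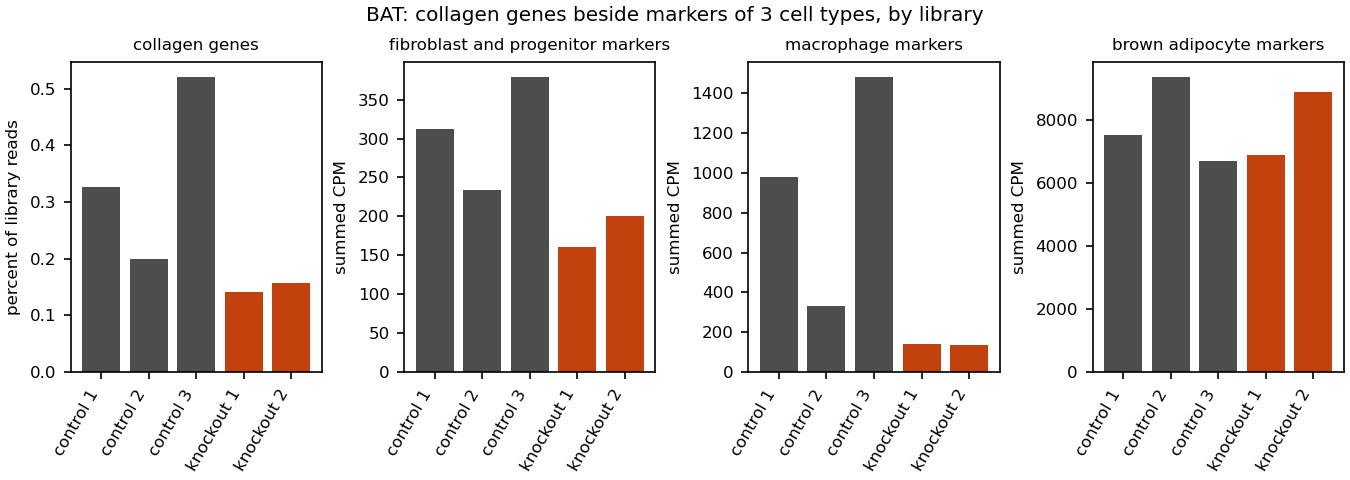
BAT libraries by the summed share of collagen reads and by the summed CPM of fibroblast and progenitor, macrophage and brown adipocyte markers; each bar is 1 library, grey for control and orange for knockout. Of the control libraries, control replicate 2 has the lowest control value for collagens (0.200%), fibroblast markers (234 CPM) and macrophage markers (331 CPM), and the highest of the brown adipocyte markers (9370 CPM).

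No collagen pathway gene was called in BAT, but 9 of 9 propeptide and cross-linking genes tested were lower without overlap, as were 38.1% of all genes. Pcolce, the main enhancer of procollagen processing, was 271, 164 and 298 CPM in control and 91.4 and 91.0 CPM in knockout (-1.36, SE 0.27), and Lox 51.9, 45.2 and 74.2 against 27.6 and 27.5 CPM (-0.99, SE 0.21). Of 18 folding genes 17 were below 0, led by the prolyl hydroxylase P3h2 (4.91 ± 0.581 against 2.29 ± 0.452 CPM, -0.85, SE 0.19) and Serpinh1 (439.8 ± 89.4 against 268 ± 7.08 CPM, -0.69, SE 0.19). The discoidin receptors Ddr1 (-0.99, SE 0.21) and Ddr2 (-1.12, SE 0.28), which sense collagen, led the receptors, 9 of 9 below 0. All 14 fibril partners were below 0, led by Tnc (-1.38, SE 0.27) and Thbs1 (-1.39, SE 0.30), as were all 9 basement membrane partners, led by perlecan Hspg2 (-0.67, SE 0.19) and Nid1 (-1.06, SE 0.29). How many of all genes were below 0 was not counted. Their median change in BAT was -0.18, and 0.0041 with TMM scaling, so counts below 0 in BAT have a shifted background. Of the inhibitors, Timp1 averaged 4.93 ± 3.79 against 0.539 ± 0.195 CPM (-1.77, SE 0.50), and Timp2 had a change of -1.58 (SE 0.50). Against this direction, the receptor Tgfbr2 was higher (75.6 ± 8.17 against 103 ± 1.01 CPM, 0.45, SE 0.12).

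In eWAT, Col8a2 was the only collagen called in any depot by limma. It met the filter on low values through its control libraries only. It was not tested under the stricter filter or in the deposited TPM table of the same libraries. It encodes a short-chain collagen known from the cornea and vessel walls. Its levels were 3.63, 3.46 and 4.38 FPKM in control and 1.20, 0.813 and 1.25 FPKM in the libraries labelled knockout, so it fell by 1.21 on the log2 scale (SE 0.14, limma adjusted p = 0.0122). The adjusted p ran from 0.0054 to 0.0692 over its 12 alternatives and was past the threshold in 10. It was 0.0692 without knockout replicate 3. In ieWAT, the other epididymal set, Col8a2 had the opposite order with 4.06, 3.25 and 2.14 CPM in control and 4.00, 5.33 and 4.77 CPM in knockout (0.48, SE 0.22), with overlap, and the 2 changes were not tested against each other.

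Next to Col8a2 stood members just short of the threshold. Col27a1 was 2.97, 4.22 and 3.85 FPKM in control and 2.56, 2.17 and 2.04 FPKM in libraries labelled knockout (-0.52, SE 0.14, limma adjusted p = 0.0508). Col4a5, a type IV chain, was 5.64, 6.21 and 3.67 FPKM against 7.70, 8.23 and 9.88 FPKM (0.66, SE 0.18, adjusted p = 0.0553), and Col12a1 4.23, 5.35 and 4.42 FPKM against 8.91, 7.21 and 5.89 FPKM (0.55, SE 0.15, adjusted p = 0.0585). With TMM scaling both were called beside Col8a2, which made 2 higher and 1 lower. Col4a2 was 199, 261 and 256 FPKM against 301, 327 and 321 FPKM (0.41, SE 0.13), and Col6a5 52.0, 46.1 and 42.8 FPKM against 54.2, 96.1 and 68.3 FPKM (0.59, SE 0.20). None of these groups overlapped.

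Of the 25 collagens tested in eWAT, 1 was called (4.00%), against 14.9% of all genes (1395 higher, 10.2%, and 646 lower, 4.70%). Unadjusted p was under 0.05 for 6 higher (24%) and 2 lower (8%), against 18.9% and 15.0% of all genes, and groups did not overlap for 7 higher and 2 lower, against 21.6% and 19.6%. Col8a2, Col23a1 and Col4a6 met the filter on low values through 1 group only. Among the 22 others, 6 were higher and 1 lower at that p, and 7 higher and 1 lower did not overlap. The median log2 change was 0.29 over the collagens, 8 of 25 below 0, and -0.02 over all genes. The 6 basement membrane chains tested, of which Col4a6 met the filter only through libraries labelled knockout, were above 0, and the summed level of that class was 692 to 962 FPKM in control and 1015 to 1090 FPKM in libraries labelled knockout, without overlap. The count over all genes depended on single libraries, with 12 genes called without knockout replicate 3 and 561 without control replicate 2. The count of collagens was 3 without control replicate 1 (Col27a1, Col5a2 and Col8a2) and 0 without knockout replicate 3. From the TPM values, 0 of the 21 collagens tested and 1 of all genes were called, and the medians moved to 1.10 over the collagens and 0.65 over all genes. Col8a2 was not among those 21.

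Most main chains overlapped in eWAT. Col1a1 was 189.8, 287 and 338 FPKM in control and 319, 149 and 334 FPKM in libraries labelled knockout, and Col3a1 669, 1260 and 1250 against 1070, 611 and 1156 FPKM, with control replicate 1 and knockout replicate 2 low for both. Col1a2 averaged 355 ± 76.8 against 329 ± 86.2 FPKM. Col5a1 averaged 80.7 ± 15.0 against 101 ± 19.2 FPKM and Col5a2 95.9 ± 28.4 against 77.7 ± 4.97 FPKM. Col6a1 (244 ± 47.9 against 317 ± 81.8 FPKM), Col6a2 (299 ± 57.6 against 393 ± 92.2 FPKM) and Col6a3 (125 ± 41.8 against 113 ± 16.0 FPKM) had wide groups. Col15a1 averaged 169 ± 40.3 against 204 ± 12.1 FPKM and Col18a1 79.8 ± 16.5 against 84.9 ± 4.83 FPKM. Col4a1 was 298, 419 and 403 against 427, 451 and 449.5 FPKM, without overlap. In the deposited TPM table of the same libraries the changes of Col1a2 (0.29), Col5a2 (1.31), Col6a3 (0.70) and Col4a1 (-0.02) had the other sign. Sizes moved as well. Over all alternatives, that table among them, the change reached 4.22 for Col6a2 (main fit 0.38), 3.91 for Col4a2 (0.41), 3.65 for Col6a1 (0.36) and 3.25 for Col18a1 (0.11). It reached down to -1.16 for Col3a1 (-0.16). The changes of Col1a1 (0.31), Col1a2 (0.12) and Col3a1 (0.13) were above 0 without knockout replicate 2, and those of Col1a1 (0.11) and Col6a3 (0.13) without control replicate 3.

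Adipocyte, endothelial and macrophage markers were the marker lists of eWAT with called members, where 10.2% of all genes were called higher and 4.70% lower. All 8 adipocyte markers rose, with sums of 1840 to 2880 FPKM in control and 5860 to 6390 FPKM in libraries labelled knockout. Of the 8 endothelial markers 5 rose (215 to 260 against 308 to 426 summed FPKM). Of the 9 macrophage markers 5 fell (8420 to 13500 against 5270 to 6670), while none of the 10 fibroblast and progenitor markers was called (742 to 843 against 670 to 802). Their part in the collagen values was not tested.

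Of the 9 basement membrane partners in eWAT, 2 rose and 1 fell, where 10.2% and 4.70% of all genes did. Nid2 rose from 23.99 ± 2.14 to 42.1 ± 3.08 FPKM (0.79, SE 0.10, limma adjusted p = 0.0122) and Hspg2 from 102 ± 8.82 to 145 ± 14.3 FPKM (0.50, SE 0.11), while Lama2 fell from 31.7 ± 3.99 to 23.1 ± 1.79 FPKM. Among 14 fibril partners 2 rose (10.2% of all genes did), the collagen-binding glycoproteins Sparc (1608 ± 166 to 2913 ± 164 FPKM, 0.86, SE 0.12) and Prelp (191 ± 40.9 to 435 ± 39.1 FPKM, 1.20, SE 0.18). The enhancers of propeptide removal moved apart, as Pcolce2 rose from 14.8 ± 4.10 to 40.5 ± 4.08 FPKM (1.42, SE 0.19) and Pcolce fell from 173 ± 38.2 to 112 ± 1.41 FPKM (-0.61, SE 0.16). In the breakdown list the inhibitor Timp4 rose (6.26 ± 2.94 to 22.2 ± 3.21 FPKM), and the stromelysin Mmp3 (40.1 ± 18.2 to 10.7 ± 2.91 FPKM) and Mmp14 (123 ± 21.04 to 82.8 ± 7.01 FPKM) fell. Of the receptors, the integrin chain Itga1 (0.75, SE 0.16) and Ddr1 (1.01, SE 0.23) rose, and Lair1, an inhibitory receptor of leukocytes, (-0.81, SE 0.16) and Antxr1 (-0.62, SE 0.13) fell. Tgfbr2 fell (-0.56, SE 0.10), Ltbp3 rose (0.40, SE 0.11), and 0 of 17 folding genes were called, the smallest p being those of P3h3 (-0.52, SE 0.14) and P3h2 (0.44, SE 0.12).

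Whether the knockout change of a collagen differed between sets was tested for 3 pairs with limma, and 0 collagens passed in any. Each fit used a common variance per gene over both sets, although spreads differed. Col1a1 control libraries, for example, were 214 ± 133 CPM in BAT and 856 ± 89.8 CPM in sWAT. The libraries were treated as independent, and any sharing of mice between sets was not modelled. Between isWAT and ieWAT, 1 of 26 collagens had an unadjusted p under 0.05 (of all genes 0% were called and 2.95% had such a p). Between sWAT and isWAT, both subcutaneous fat with the constitutive and the inducible knockout, 9 of 26 did, against 7.76% of all genes. The differences were 1.24 (SE 0.28) for Col4a3, 1.382 (SE 0.32) for Col6a6 and 1.06 (SE 0.32) for Col4a4, and the smallest adjusted p was 0.602. Among the 9, Col4a3 met the filter on low values in isWAT only through the control libraries. Col6a5, also among them, met it in sWAT only through the knockout libraries, which bears on the direction of both. Between BAT and sWAT, the 2 constitutive sets, 12 of 24 had an unadjusted p under 0.05, against 12.3% of all genes. There the change was lower in BAT for 23 of the 24, by a median of -1.03, and by -2.0 (SE 0.66) for Col1a1, -1.86 (SE 0.57) for Col1a2 and -1.95 (SE 0.58) for Col14a1, with a smallest adjusted p of 0.345 over the collagens and 0.00786% of all genes called. The same count of directions was not taken over all genes. Their median change within each set was -0.18 in BAT and -0.05 in sWAT.

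A few members, chosen here after their values were seen, had changes of the same sign across depots. Col27a1 was below 0 in all 5 sets, by -0.62 in BAT, -0.52 in eWAT, -0.31 in isWAT, -0.25 in sWAT and -0.23 in ieWAT, and was called in none. Its control level was 65.6 ± 2.28 CPM in BAT, against 13.7 ± 3.65 CPM in ieWAT, 10.7 ± 2.23 in isWAT and 5.32 ± 1.01 in sWAT. Col5a2 was also below 0 in all 5, although its sign turned in isWAT without knockout replicate 1 (0.13), for sWAT Col5a2 without control replicate 3 (0.00287) or knockout replicate 3 (0.018), and in eWAT in the TPM table (1.31). Col4a1, Col4a2, Col4a5, Col12a1 and Col18a1 were below 0 in the 4 high fat diet sets and above 0 in eWAT, where for Col4a2 the sign in sWAT turned without knockout replicate 2 (0.016) and for Col18a1 that in eWAT without control replicate 1 (-0.05).

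Ratios of paired chains varied less than the level of the first chain for Col4a1 to Col4a2 in all 5 sets and for Col6a1 to Col6a2, but not for every pair. The Col4a1 to Col4a2 ratio of CPM spanned 1.35 to 1.46 in isWAT, 1.33 to 1.45 in ieWAT, 1.29 to 1.49 in sWAT and 1.30 to 1.44 in BAT, where the level of Col4a1 itself spanned a 2.42-fold range while the ratio spanned 1.11-fold. The groups of this ratio did not overlap in isWAT, where it was higher in knockout (1.39 and 1.46), in BAT, where it was lower (1.39 to 1.44 against 1.30 in both), and in eWAT, where it was lower in libraries labelled knockout (at most 1.42, from FPKM). For Col4a1 and Col4a2 no ratio was taken from the TPM values of eWAT. These genes lie next to each other on opposite strands in the RefSeq annotation of GRCm38.p6, and the sources used here do not say whether reads were counted by strand. Col6a1 to Col6a2 spanned 0.931 to 1.01 in BAT, over a 5.22-fold range of Col6a1. The ratio of Col5a1 to Col5a2 had a wider fold range than the level of Col5a1 in sWAT (1.55 against 1.19) and eWAT (1.87 against 1.76), as had the low pair Col4a3 to Col4a4 in ieWAT (1.88 against 1.73) and BAT (4.81 against 2.92). For Col5a1 to Col5a2 it was 1.26, 1.15 and 1.12 in isWAT control libraries and 1.00 and 0.945 in knockout, and 0.992, 1.23 and 1.03 in BAT control against 0.553 and 0.660 in knockout. In eWAT it had the opposite order, with 1.01, 0.821 and 0.769 in control and 1.44, 1.08 and 1.36 in libraries labelled knockout, while the groups of ieWAT and sWAT overlapped. No test was made of these ratios, which were picked out after their values were seen.

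**Figure D5:**
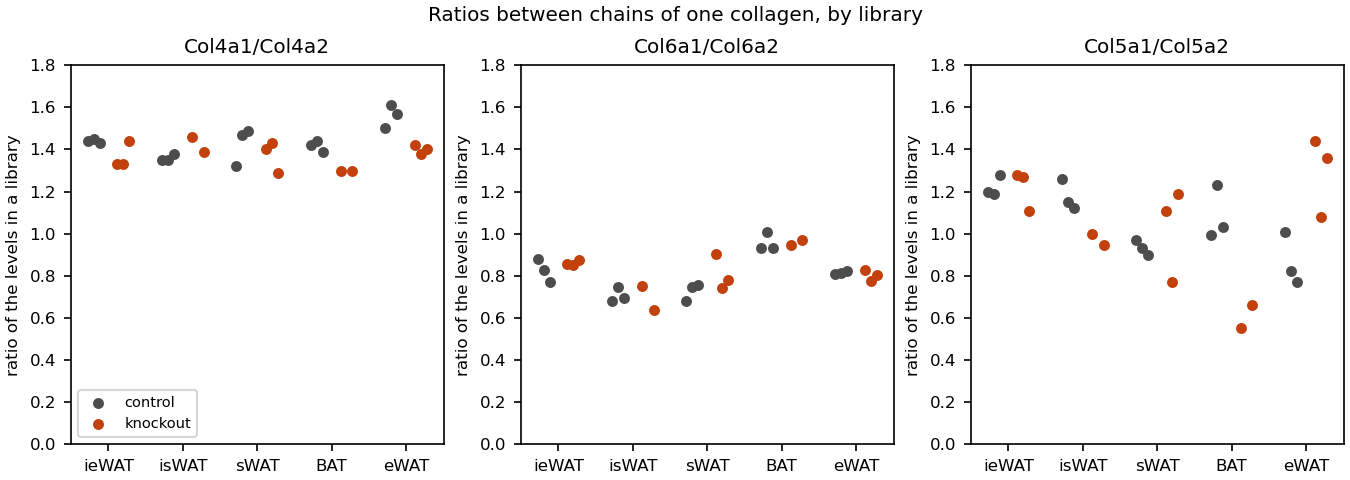
Ratio of the levels of paired chains in each library (grey control, orange knockout), from CPM in ieWAT, isWAT, sWAT and BAT and from FPKM in eWAT, so that the height in eWAT is not on the scale of the others. Col4a1/Col4a2 stays between 1.29 and 1.49 in the 4 CPM depots, while Col5a1/Col5a2 falls to 0.553 and 0.660 in the BAT knockout libraries.

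The remaining members were low. Those below the filter for the test numbered 9 in each of BAT and eWAT, 8 in sWAT, 5 in ieWAT and 4 in isWAT. Col6a4 reached at most 1.33 CPM in any library and was listed at 0 in all 3 sWAT knockout libraries and both BAT knockout libraries. Col22a1, a collagen of muscle and tendon junctions, was 0.663, 0.352 and 20.1 CPM in ieWAT control libraries and 0.298 to 0.681 CPM in knockout, so a single library carried it. Col17a1, a chain of epithelial anchoring, peaked at 1.30 CPM, and Col7a1, the anchoring fibril, at 1.46 CPM. Col23a1, a membrane-spanning collagen, and Col28a1 were measured in every depot, with changes from -0.18 to 0.43 and from -0.36 to 0.48, and neither was called. The 0.43 of Col23a1 is from eWAT, where it met the filter on low values only through libraries labelled knockout.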

How the data were processed

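RNA from 28 adipose libraries of mice (15 control, 13 knockout) was sequenced. Per the labels' protocols it was extracted with Qiagen RNeasy columns and sequenced on a HiSeq2000. Per the submitters' processing notes the authors used Salmon, FastQC, MultiQC and DESeq2 1.38.3; the sources used here do not give the genome build, annotation or strand setting. The authors deposited CPM values for ieWAT, isWAT, sWAT and BAT, which summed to 1000000 per library. For eWAT the authors deposited FPKM values and, in a further table, TPM values, which served as an alternative; another deposited table of the same libraries with an unexplained scaling was not used. The CPM values gave whole reads for 100% of values (tolerance 0.01), which gives the totals in the report; the precision of eWAT is limited by its unknown depth. All per-sample columns were mapped to samples (0 left over). Symbols were matched for 92.0% of identifiers (96.0% in ieWAT).

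Within each depot, limma 3.58.1 (R 4.3.3, trend and robust options) was fitted to log2(value + 1) of every gene that reached 1 in a number of libraries equal to the smaller group, with Benjamini-Hochberg adjustment and a threshold of 0.05. Differences between depots were tested as interaction terms on the CPM tables. The fit was tested on simulated data. For a single gene the smallest two-sided exact permutation p is 0.1 with 3 against 3 libraries and 0.2 with 3 against 2, so no such test could pass. Alternatives were the pseudocount, the filter, TMM scaling, limma without those options, a replicate block, each library left out, the TPM table, and edgeR 4.0.16 and DESeq2 1.42.0 on the recovered reads.

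The rule for named genes took 12 chains of the main adipose collagens, each collagen called, the 5 others with the smallest p in a depot and, per pathway list, the genes called or else the 2 with the smallest p. Of the genes picked by this rule, 1 is not reported here. The members and lists were chosen with earlier results of these data known.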

Additional observations from a re-analysis of the deposited data

How the results depend on the processing

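No collagen was called in ieWAT, isWAT, sWAT or BAT by limma under any alternative except without BAT control replicate 2. DESeq2 on recovered reads called 1 collagen in sWAT and 7 in BAT. In eWAT the count of 1 collagen became 2 with the stricter filter, 3 with TMM scaling, 2 with limma without trend and robust options and 0 with TPM. The stricter filter and the TPM table both left Col8a2 untested. Leaving out single libraries gave 0 to 12 collagens in BAT and 0 to 3 in eWAT.

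Over all genes, DESeq2 called 791 in BAT, 52 in sWAT, 273 in isWAT and 32 in ieWAT, and edgeR 1 in sWAT and 0 in BAT. A pseudocount of 0.1 gave 5 in sWAT and 0 in BAT. Without a filter there were 544 in eWAT, 7 in BAT, 5 in sWAT and 3 in isWAT, and with the stricter filter 0 in BAT. Limma without those options gave 0 in isWAT and BAT, and TPM gave 1 in eWAT. Single libraries left out gave 0 to 2201 in BAT, 12 to 1819 in eWAT, 1 to 120 in sWAT, 0 to 12 in isWAT and 0 to 1 in ieWAT.

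The median collagen change without a filter was -0.526 in BAT and 0.0747 in eWAT, where more low genes entered, and 1.1 with TPM. With single libraries left out it spanned -0.254 to -0.0981 in ieWAT, -0.0135 to 0.132 in sWAT and 0.105 to 0.35 in eWAT.

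Of 1098 values of 77 named gene and depot pairs under alternatives, 1050 kept direction and side of the threshold, 24 moved past it, 2 lost it and 22 changed sign. With TPM the sign turned in eWAT for Col1a2 (0.293), Col5a2 (1.31), Col4a1 (-0.0232) and Col6a3 (0.699). Over all eWAT alternatives the change reached 4.22 for Col6a2, 3.91 for Col4a2, 3.65 for Col6a1 and 3.25 for Col18a1, and down to -1.16 for Col3a1. With libraries left out the changes spanned, in isWAT, -0.265 to 0.13 for Col1a2, -0.318 to 0.0322 for Col3a1, -0.309 to 0.131 for Col5a2 and -0.385 to 0.0736 for Col6a3. In sWAT they spanned -0.00619 to 0.124 for Col5a1, -0.0331 to 0.127 for Col6a3, -0.175 to 0.018 for Col5a2, -0.153 to 0.0156 for Col4a2 and -0.0349 to 0.14 for Col15a1. In eWAT they spanned -0.0457 to 0.252 for Col18a1, -0.307 to 0.305 for Col1a1, -0.363 to 0.133 for Col6a3, -0.314 to 0.118 for Col1a2 and -0.462 to 0.128 for eWAT Col3a1. Differences between depots held 0 calls with a pseudocount of 0.5 and with TMM scaling. Apart from the number of genes or libraries in a fit, the cause was not tested.

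With the replicate number as a block, limma called 0 collagens in each depot, Col8a2 in eWAT having an adjusted p of 0.0627, and over all genes 0 in BAT, 0 in eWAT, 1 in sWAT, 7 in isWAT and 1 in ieWAT. Correlations of same-numbered libraries were -0.164 to 0.39 in BAT, -0.317 to 0.0634 in eWAT, -0.242 to 0.00326 in sWAT, -0.561 to -0.328 in isWAT and -0.391 to 0.136 in ieWAT, so the numbers do not pair libraries.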
